A study of Mus musculus with 42 samples.

Results

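The chromosome 14 granzyme cluster is a run of 6 neighbouring serine protease genes, Gzmb, Gzmc, Gzmd, Gzme, Gzmf and Gzmg, defined by their names and position. They are 6 of the 54353 genes shared by the bulk RNA-seq tables. On mm10 all 6 lie on the minus strand of chromosome 14 within 145 kb. From the centromere side the order is Gzme (chr14:56117626-56120625, ENSMUSG00000022156), Gzmd (chr14:56129556-56132608, ENSMUSG00000059256), Gzmg (chr14:56156582-56159579, ENSMUSG00000040284), Gzmf (chr14:56205263-56211417, ENSMUSG00000015441), Gzmc (chr14:56231441-56234656, ENSMUSG00000079186) and Gzmb (chr14:56258838-56262260, ENSMUSG00000015437). Gzmn lies between Gzmg and Gzmf.

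The bulk data were 34 libraries in 17 groups of 2, from tissue-resident NK (trNK) cells of the uterus of wild-type C57BL/6 mice. CD45+NK1.1+NKp46+CD49a+CXCR6- cells were sorted from virgin mice and on gestation day 6.5 and 8.5 (gd6.5, gd8.5). Subsets at gd8.5 were sorted as low (trNK-V), intermediate (trNK-D) or high (trNK-T) for CD55 and 4-1BB. In the inhibitor experiment, NK1.1+ lymphocytes were kept for 3 days in medium lacking IL-21, in IL-21 at 20 ng/ml, or in IL-21 plus Stattic, a small-molecule inhibitor of STAT3. The Stattic dose is 1 µM in the sample annotation and 1 mM in the study's methods. In the time course, cells sorted at gd6.5 were cultured with IL-15 for 0, 6, 24 or 72 h, with or without IL-21 at 20 ng/ml. The time-course groups thus share IL-15, given as 10 ng/ml in the sample annotation and as 15 ng/ml in the protocol. The study's methods list IL-15 at 10 ng/ml in the medium of its cultured trNK cells, to which IL-21 and Stattic were added. By these methods the inhibitor groups share IL-15 too, although their sample annotation gives no IL-15 dose. The study describes cells cultured with IL-21 as trNK-V from gd6.5 mice. A single-cell matrix (BD Rhapsody) held live CD45+NK1.1+NKp46+ cells pooled from the uteri of several virgin and gd8.5 mice. The sample tags that tell virgin from gd8.5 cells were not used here, so the matrix was treated as 1 sample.

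Granzymes are proteases that cytotoxic lymphocytes store in secretory granules and release with perforin, which lets them enter a target cell. Granzyme B cuts after aspartate and activates caspases, and is the main death-inducing granzyme of mouse NK cells. Granzyme C can also kill target cells, by a route that does not need caspases. Granzymes D to G are closely related proteases with few known substrates, and are known chiefly from the granulated NK cells of the mouse decidua and from T cells kept long in IL-2.

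The sequence just before each start site was compared first, since it shows how far the members resemble each other outside their transcripts. The stretches shown are 120 bases of each promoter (RefSeq, GRCm38.p6, minus strand, 5′ to 3′). Capitals mark TGTGGT, the core read by RUNX factors, and TGACGTCA, the full cAMP response element.
Gzmb, chr14:56262335-56262454: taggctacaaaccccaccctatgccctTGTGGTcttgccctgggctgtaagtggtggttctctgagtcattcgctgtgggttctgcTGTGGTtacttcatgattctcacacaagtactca
Gzmc, chr14:56234673-56234792: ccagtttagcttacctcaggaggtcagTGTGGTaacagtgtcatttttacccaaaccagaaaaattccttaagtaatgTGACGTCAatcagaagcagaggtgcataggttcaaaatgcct
Gzmd, chr14:56132613-56132732: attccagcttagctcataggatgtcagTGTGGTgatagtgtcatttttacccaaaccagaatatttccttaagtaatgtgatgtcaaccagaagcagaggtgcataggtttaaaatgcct
Gzme, chr14:56120646-56120765: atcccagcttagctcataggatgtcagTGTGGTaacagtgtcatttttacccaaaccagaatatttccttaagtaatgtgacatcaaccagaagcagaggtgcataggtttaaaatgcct
Gzmf, chr14:56211448-56211567: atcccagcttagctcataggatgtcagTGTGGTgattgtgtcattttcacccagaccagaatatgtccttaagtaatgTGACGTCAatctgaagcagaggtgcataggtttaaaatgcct
Gzmg, chr14:56159615-56159734: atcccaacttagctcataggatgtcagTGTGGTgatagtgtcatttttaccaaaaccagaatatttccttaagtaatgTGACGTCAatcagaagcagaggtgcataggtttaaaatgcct
The stretches of Gzmc to Gzmg are lined up on a shared run of 20 bases and end between -41 (Gzmf) and -16 (Gzmc) relative to the start site, and that of Gzmb ends at -1. Compared position by position, without gaps, Gzmd to Gzmg were 92.5% to 95.8% identical to each other and 77.5% to 81.7% identical to Gzmc. The stretch of Gzmb could not be lined up in this way, and the longest run that its promoter shared with that of any other member was 9 bases. Both strands of the 250 bases before the start site were searched. TGTGGT was found in 6 of 6 members and in 14.05% of 32851 promoters. TGACGTCA was found in Gzmc, Gzmf and Gzmg and in 1.55% of promoters. The run TTTAAA was found in Gzmd, Gzme, Gzmf and Gzmg and in 12.1% of promoters. TTCNNNGAA, the form bound by STAT proteins, was found in 0 of 6 members and in 7.02% of promoters. These matches describe letters in this window and not occupied sites.

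The transcripts are similar too, which bears on every bulk value below and on the per-cell overlap of Gzmd to Gzmg. Gzmd and Gzme were 94.8% identical along their aligned bases, and the other pairs among Gzmd to Gzmg were 86.4% to 90.3% identical. Of all 50-base windows of the transcript, 21.9% for Gzmd, 20.6% for Gzme, 19.8% for Gzmg, 7.36% for Gzmf and 4.14% for Gzmc also occur in another gene. For Gzmb the share was 0%. The study's methods name RSEM for counting, while the submitters' processing notes list featureCounts. How reads matching several genes were counted is therefore not settled by the sources used here. The split of reads among Gzmd, Gzme and Gzmg is thus uncertain, and the doubt is least for Gzmb.

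Depth ran from 11862089 to 66468883 counts per library. All 4 NK markers were above 0 in every library, and Itga1, which encodes CD49a, was at 1.6 to 30.6 RPKM. Levels are given as RPKM, counts scaled to gene length and library total, which allows comparison between genes.  Each test of a member below comes from edgeR's quasi-likelihood model over all genes of an experiment, and a call needed an adjusted p below 0.05 as well as a fold above 2. Nothing in the annotation says that the 2 libraries of a group came from separate mice, so p-values measure the spread between these libraries, which may be technical.

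The stage comparison asked when each member appears as pregnancy proceeds. Gzmb was at 173 and 8742 RPKM in the virgin libraries, 12992 and 10007 on gd6.5, and 10267 and 9815 on gd8.5. Gzmc was at 22.4 and 8387 in virgin, 4115 and 3353 on gd6.5, and 7237 and 8123 on gd8.5. The first virgin library held little of either gene, and the second held as much Gzmc as any gestation library.

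Gzmd to Gzmg, the decidual granzymes, were at 0 in the first virgin library. In the second, Gzmd was at 280, Gzme at 303, Gzmf at 143 and Gzmg at 70.5 RPKM. At gd6.5 Gzmd was at 1246 and 628 RPKM, Gzme at 1020 and 622, Gzmf at 1089 and 622, and Gzmg at 150 and 23.4. At gd8.5 Gzmd was at 887 and 1670, Gzme at 1061 and 1110, Gzmf at 925 and 904, and Gzmg at 138 and 684. For Gzmd, Gzme and Gzmf every gestation library lay above both virgin libraries. Of all tested genes, 36.4% did so at gd6.5 and 28.6% at gd8.5. For Gzmg the gd6.5 libraries overlapped the virgin range and the gd8.5 libraries did not.

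**Figure D1:**
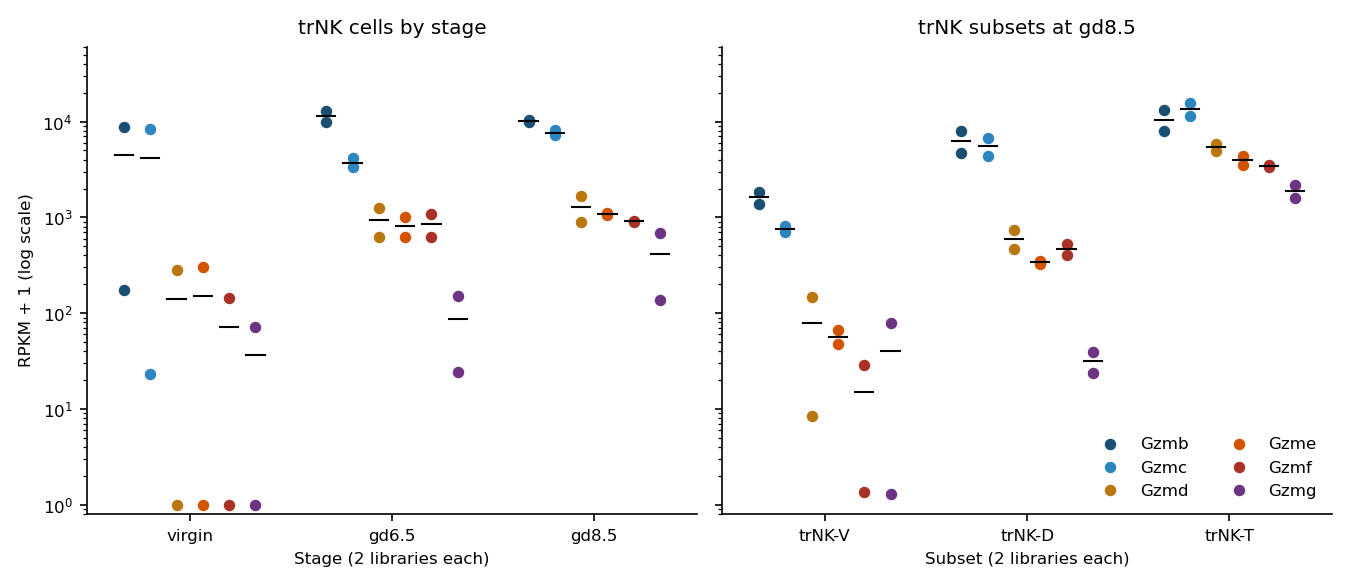
RPKM + 1 on a log axis for the 6 members in trNK cells by stage (left) and in the gd8.5 subsets (right), with 1 point per library and 2 libraries per group. The virgin libraries lie far apart for every member, and in trNK-T every member lies above both trNK-V libraries.

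With the virgin libraries so far apart, 0 of 6 members were called at gd6.5 or at gd8.5 against virgin by edgeR, and 0 reached an unadjusted p below 0.05. DESeq2 and limma-voom also called 0. Of all 4504 genes tested, 6.22% were called on gd6.5 and 0.377% on gd8.5, in either direction. The members' median log2 fold change was 1.82 on the earlier day and 2.95 on the later, against -0.01 over all genes on both days. Gzmf gave the highest values on both days, 3.50 ± 1.97 (SE) and then 3.61.

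The calls changed with the virgin library that was left in. A single virgin library has no spread of its own and is assumed to vary like the other groups, so these counts describe the choice of library and are not read as tests. Without virgin replicate 2, the reference held 0 counts of Gzmd to Gzmg, and all 6 members were called higher on both days, where 18.6% (gd6.5) and 12.2% (gd8.5) of genes were called. Gzmc then stood 7.36 higher on the log2 scale at gd6.5, while without virgin replicate 1 it was called lower, at -1.23. Without virgin replicate 1, 10.3% of genes were called at gd6.5 and 1.7% at gd8.5. Gzme and Gzmf were then called higher on both days, Gzme by 1.37 and 1.78 and Gzmf by 2.52 and 2.62. The table of virgin replicate 1 listed 55573 genes, against 54446 in each of the other 33, so its reads were counted on another gene list. The shared genes held 99.9% of its counts. Markers of other cells differed between the virgin libraries as well. The summed RPKM of the 5 ILC1 markers was 139 in replicate 1 and 21.1 in replicate 2, and that of the T cell markers 274 and 47.1. The part of the gene list and of these cells in the result was not tested, and in bulk libraries fewer cells of a type and less RNA per cell cannot be told apart.

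Between gd6.5 and gd8.5 no gene was called (0% of 4504, with 1062 genes and 0 members at an unadjusted p below 0.05). DESeq2 and limma-voom called 0 members. The members' median log2 fold change was 0.44. Gzmc and Gzme were higher in both gd8.5 libraries than in either gd6.5 library, as were 32.9% of all tested genes. In a fit of these 2 groups alone, Gzmc was called, and the share of all genes that this fit called is not given here.

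The subsets at gd8.5 gave the clearest order. CD55 and 4-1BB (Tnfrsf9) defined the sort, and both transcripts followed it. Cd55 was at 6.4 and 19.4 RPKM in trNK-V, 52.9 and 72.6 in trNK-D, and 179 and 214 in trNK-T. Tnfrsf9 was at 201 and 138, 465 and 507, and 1172 and 1357.

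Gzmb was at 1389 and 1845 RPKM in trNK-V, 4712 and 7896 in trNK-D, and 7897 and 13082 in trNK-T. Gzmc was at 812.5 and 699 in trNK-V, 4347 and 6747 in trNK-D, and 15668 and 11340 in trNK-T. Both genes were thus already high in the lowest subset, and the libraries of neighbouring subsets did not overlap, although the higher trNK-D and the lower trNK-T library were all but equal for Gzmb. Of all tested genes, 25.9% were higher without overlap in trNK-D than in trNK-V, 29.4% in trNK-T than in trNK-D and 36.5% in trNK-T than in trNK-V.

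Gzmd was at 7.5 and 147 RPKM in trNK-V, 733 and 464 in trNK-D, and 4868 and 5865 in trNK-T. Gzme was at 46.6 and 65.5, then 353 and 325, then 3503 and 4379. Gzmf was at 0.35 and 27.7, then 402 and 529, then 3517 and 3351. These 3 genes were low in trNK-V, intermediate in trNK-D and high in trNK-T, with no overlap, which is read against the same shares of all genes. Gzmg was at 0.29 and 78.7 in trNK-V, 38.3 and 22.9 in trNK-D, and 1580 and 2164 in trNK-T, so it was separated from the other subsets in trNK-T and not between trNK-V and trNK-D.

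Between trNK-D and trNK-V, 2 of 6 members were called higher, where 0.256% of 4683 genes were. They were Gzmc, by 2.89 ± 0.28 on the log2 scale (SE, adjusted p = 0.025), and Gzme, by 2.60 ± 0.23 (adjusted p = 0.022). Gzmb had a value of 1.98 ± 0.34 with an adjusted p of 0.094, Gzmd 2.95 ± 1.11 with 0.22, Gzmf 5.06 ± 1.38 with 0.14, and Gzmg -0.37 ± 1.42 with 0.90. Without trNK-V replicate 1, without trNK-D replicate 2 or with genes filtered by edgeR's filterByExpr, 0 members were called. Without trNK-V replicate 2, Gzmd and Gzmf were called in place of Gzmc and Gzme.

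Between trNK-T and trNK-V, 6 of 6 members were called higher, where 8.07% of genes were. The members' median log2 fold change was 5.83, against -0.02 over all genes. Gzmb, the caspase-activating granzyme, rose by 2.70 ± 0.35 (adjusted p = 0.0043), and Gzmc by 4.16 ± 0.29 (adjusted p = 0.001). The rises of the decidual granzymes were larger in value: Gzmd 6.11 ± 1.29, Gzme 6.14 ± 0.27, Gzmf 7.93 ± 1.56 and Gzmg 5.56 ± 1.70. Leaving out trNK-T replicate 2 left 3 calls (Gzmb, Gzmc and Gzme), and leaving out replicate 1 left 5.

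Between trNK-T and trNK-D, Gzme was the only member called, by 3.53 ± 0.24 (adjusted p = 0.0055), where 0.342% of genes were called higher. All 6 members were higher in both trNK-T libraries than in either trNK-D library, as were 29.4% of all tested genes. Gzmc had a value of 1.27 (adjusted p = 0.068), Gzmd 3.16 (0.17), Gzmf 2.87 (0.23) and Gzmg 5.93 (0.12). The value of Gzmb, 0.72, was the lowest. Without trNK-T replicate 2 the call of Gzme was lost. A fit of these 2 groups alone called 4 members, and the share of all genes that this fit called is not given here.

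Markers of other cells also differed between subsets. The summed RPKM of 5 ILC1 markers was 106 and 182 in trNK-V, 28.0 and 23.9 in trNK-D, and 1.3 and 1.6 in trNK-T. The 6 macrophage markers summed to 23.7 and 277 in trNK-V, 230 and 317 in trNK-D, and 4.0 and 5.2 in trNK-T. T cell markers summed to 165 and 161 in trNK-V and to 31.9 and 28.0 in trNK-T. Their part in the members' differences was not tested.

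The makeup of the cluster's RNA changed as well as its amount. The 6 genes took 0.277% and 0.357% of all counts in trNK-V, 1.21% and 1.86% in trNK-D, and 3.79% and 4.36% in trNK-T. Gzmb was the highest member in trNK-V and at both gestation days, followed by Gzmc. In trNK-D the libraries of Gzmb and Gzmc overlapped. In trNK-T the mean of Gzmc was above that of Gzmb with overlapping libraries, and Gzmd was above Gzme and Gzmf, which overlapped, with Gzmg lowest. Gzmc ranked first among all genes in trNK-T replicate 1, and Gzmb did so in replicate 2. All 6 members were within the top 32 genes of both trNK-T libraries.

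**Figure D2:**
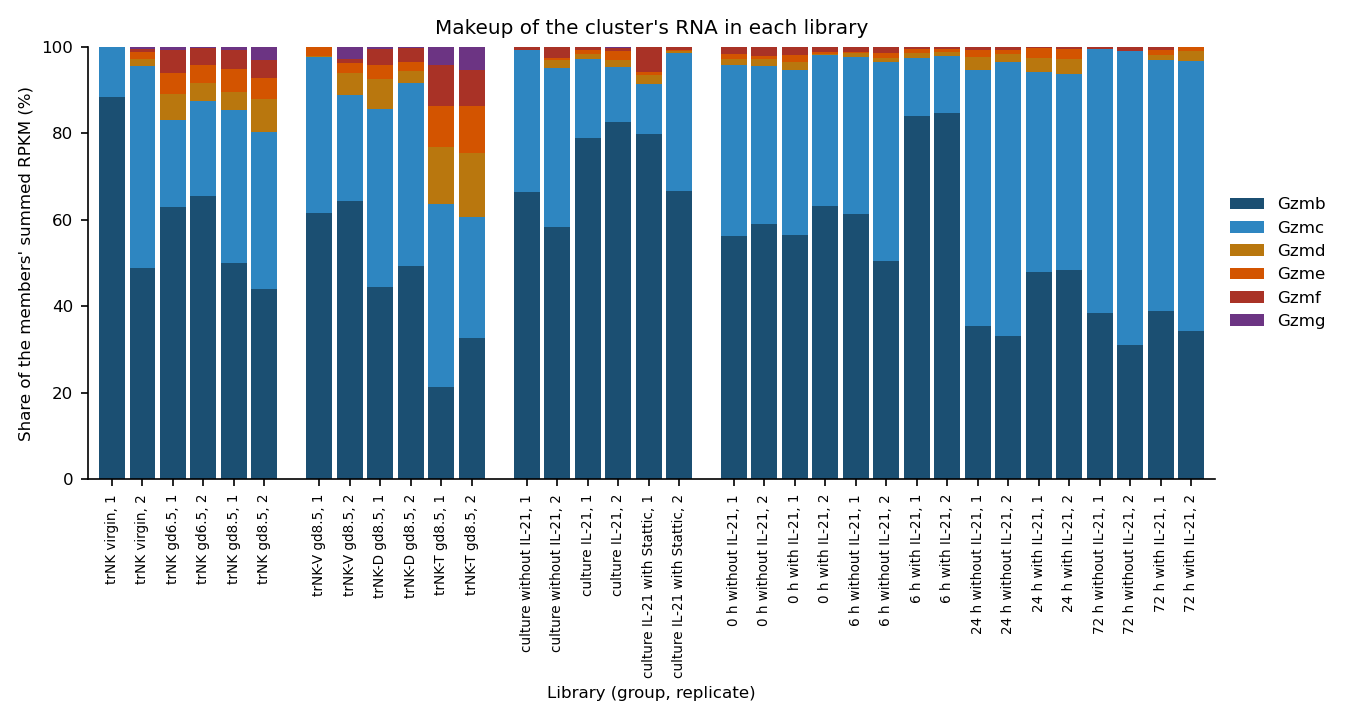
Share of the members' summed RPKM (%) taken by each member in each of the 34 bulk libraries, as stacked bars that reach 100. Gzmd to Gzmg take their greatest share in the trNK-T libraries, and Gzmb takes 84.1% and 84.7% at 6 h with IL-21.

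The time course asked how soon IL-21 changes each member. At 0 h Gzmb was at 4030 and 3794 RPKM in the libraries labelled without IL-21 and at 2442 and 5561 in those labelled with it. Gzmc was at 2837 and 2340 against 1645 and 3059. Gzmd to Gzmf lay between 28.2 and 122 RPKM in all 4 libraries, and Gzmg between 0.67 and 4.5. No gene was called at 0 h (0% of 3503, with 110 genes and 0 members at an unadjusted p below 0.05, and 0 members called by DESeq2 or limma-voom). Gzmd and Gzmf, and Gzmg at low levels, lay lower without overlap in the libraries labelled with IL-21, as did 19.7% of all tested genes.

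Gzmb was the first member to be called. At 6 h it was at 3632 and 2653 RPKM without IL-21 and at 10867 and 12237 with it, and at 24 h at 2051 and 2421 against 9957 and 8535. At 72 h it was at 987 and 517 against 4336 and 1881. The ratio of means was 3.68 at 6 h and 4.13 at 24 h and at 72 h, so its ratio to the matched cells stayed nearly constant while its level fell.

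Gzmc came later. At 6 h it was at 2146 and 2416 RPKM without IL-21 and at 1722 and 1901 with it, a ratio of 0.794. At 24 h it was at 3439 and 4646 against 9577 and 8018, and at 72 h at 1569 and 1128 against 6467 and 3436. The ratio of means was 2.18 at 24 h and 3.67 at 72 h.

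Gzmd and Gzme were low at 6 h, highest at 24 h with IL-21, and nearly absent at 72 h without it. Gzmd at 6 h was at 53.9 and 56.1 RPKM without IL-21 and 158 and 136 with it. At 24 h it was at 172 and 138 against 664 and 595, and at 72 h at 0 and 0.35 against 132 and 122. Gzme was at 20.1 and 59.9 against 116 and 111 at 6 h, and at 95.4 and 67.7 against 471 and 429 at 24 h. At 72 h Gzme had 0 counts in both libraries without IL-21, and 134 and 50.8 RPKM with it. Measured against a floor of 3 counts per library, Gzme was at least 957-fold higher with IL-21 at 72 h. For both genes the libraries with IL-21 lay above those without at 6, 24 and 72 h, as did those of 30.3%, 39.8% and 21.6% of all tested genes.

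Gzmf and Gzmg did not share this pattern. Gzmf with and without IL-21 lay between 36.0 and 71.9 RPKM at 6 and 24 h. At 72 h it was at 9.4 and 16.1 without IL-21 and at 72.0 and 5.3 with it, so the groups overlapped. Gzmg never exceeded 9.8 RPKM in the time course and did not pass the filter on low levels, so 5 of 6 members were tested there. In trNK-T the same gene was at 1580 and 2164 RPKM.

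**Figure D3:**
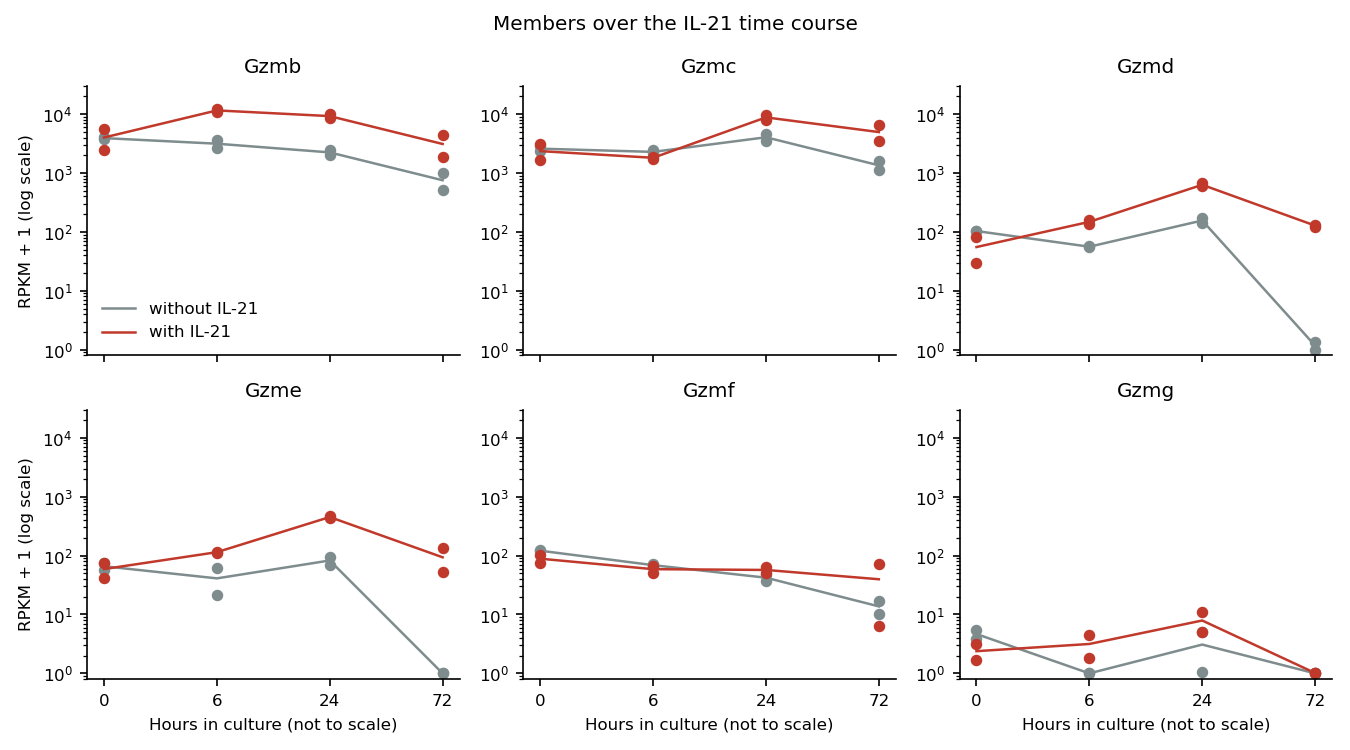
RPKM + 1 on a log axis against hours in culture, 1 panel per member, with 1 point per library (2 per group) without and with IL-21. Gzmb, Gzmd and Gzme lie higher with IL-21 from 6 h, Gzmc from 24 h, and Gzmf slightly higher at 24 h. At 72 h Gzmd and Gzme are at or near 0 without IL-21.

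At 6 h Gzmb was the only member called higher with IL-21, by 1.85 ± 0.36 on the log2 scale (adjusted p = 0.024), where 0.599% of genes were called higher. Gzmd had a value of 1.38 (adjusted p = 0.37), Gzme 1.44 (0.29), Gzmc -0.37 and Gzmf -0.27. At 24 h Gzmb was again the only member called, by 1.94 ± 0.36 (adjusted p = 0.021), where 0.343% of genes were. Gzmc then had a value of 1.02 (adjusted p = 0.086), Gzmd 1.92 (0.16) and Gzme 2.36 (0.071). Both calls of Gzmb were lost without any 1 of the 4 libraries compared (adjusted p from 0.11 to 0.25 at 6 h and from 0.16 to 0.22 at 24 h), and with filterByExpr (0.051 and 0.075). At 24 h DESeq2 called 4 members and limma-voom 3, and the share of all genes that these fits called is not given here. The ILC1 markers summed to 122 to 190 RPKM at 6 and 24 h without IL-21 and to 59.3 to 76.8 with it, and their part in these differences was not tested.

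At 72 h, 4 of 5 members were called higher with IL-21, where 6.57% of genes were. Gzmb was higher by 1.94 ± 0.36 (adjusted p = 0.0072) and Gzmc by 1.77 ± 0.27 (adjusted p = 0.002). Gzmd (adjusted p = 5.6e-05) and Gzme (adjusted p = 3.2e-05) were called against libraries at or near 0. Gzmf had a value of 1.31 (adjusted p = 0.31), and was called without the second 72 h library with IL-21. In a fit of the 2 groups at 72 h alone, 0 members were called. The libraries without IL-21 held 10724 and 11665 genes with at least 1 count at 72 h, against 13996 and 12000 with it. The summed RPKM of 5 genes of dividing cells was 8.5 and 0.54 against 84.6 and 54.7. The part of these measures in the IL-21 effect at 72 h, and in its change from 6 h, was not tested.

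The change in the response itself was tested as the IL-21 effect at 72 h minus that at 6 h, where 3.6% of genes were called higher and the median over all genes was 0.14. Gzmc was called, at 2.14 ± 0.37 (adjusted p = 0.0077), as were Gzmd (adjusted p = 8.0e-04) and Gzme (adjusted p = 2.3e-04). Gzmb had a value of 0.09 (adjusted p = 0.96) and Gzmf 1.59 (adjusted p = 0.50). The later effect was therefore greater for 3 of 5 members, and for Gzmb no difference was detected. Mean levels with IL-21 at 6 and 72 h were 1811 and 4952 RPKM for Gzmc, 147 and 127 for Gzmd, and 113 and 92.5 for Gzme. Gzmd and Gzme thus had no higher mean with IL-21 at 72 h, and their calls rest on the fall in the arm without it.

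Levels over time were also compared within each arm. Without IL-21, 0 of 5 members were called between 0 and 6 h, where 0% of genes were called and 106 genes and 0 members reached an unadjusted p below 0.05. Between 6 and 24 h 0 were called, with 2 members at an unadjusted p below 0.05 and 0.0856% of genes called. DESeq2 and limma-voom called 0 members at both steps. From 24 to 72 h without IL-21, 4 of 5 members fell, where 9.82% of genes were called lower. Gzmb fell by 1.26 and Gzmc by 1.25 on the log2 scale (adjusted p = 0.032 and 0.0094), Gzmd fell to 0 and 14 counts, and Gzme fell at least 844-fold to 0 counts. Without the second 24 h library, 2 of these calls remained (Gzmd and Gzme), Gzmb being lost also without the first 24 h library or the second 72 h library. In a fit of these 2 groups alone, Gzme was the only member called.

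With IL-21, 0 members were called from 0 to 6 h, where 2.68% of genes were called. Gzmb had a value of 1.39 (adjusted p = 0.059) and was the 1 member at an unadjusted p below 0.05. DESeq2 and limma-voom each called 1 member, and the share of all genes they called is not given here. From 6 to 24 h Gzmc was the only gene called higher of all 3503 (0.0285%), by 2.35 ± 0.27 (adjusted p = 0.011). That call was lost without any 1 of the 4 libraries (adjusted p from 0.06 to 0.39). From 24 to 72 h Gzmb fell by 1.27 (adjusted p = 0.028) and Gzme by 1.99 (adjusted p = 0.032), where 6.02% of genes were called lower. Both of these calls were lost without either 24 h library or without the second 72 h library, and without the first 72 h library Gzmf was called as well. Gzmd had a value of -1.93 (adjusted p = 0.05).

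Markers of dividing cells moved over the same interval. The summed RPKM of the 5 such genes was 576 to 705 at 24 h over both arms, against the lower values at 72 h given above. Libraries at the earlier times held 13340 to 15679 genes with at least 1 count, more than the libraries at 72 h without IL-21. The 50 highest genes took 40.7% and 45.2% of counts at 72 h without IL-21, 35.0% and 46.4% at 72 h with it, and 26.6% to 34.5% earlier. The part of these measures in the members' fall was not tested. Without IL-21 the mean of Gzmc was above that of Gzmb at 24 and 72 h. With IL-21 Gzmb was above Gzmc at 24 h and below it at 72 h, with overlapping libraries at both times. The 6 genes took 1.75% and 1.96% of all counts at 6 h with IL-21, 2.40% and 2.05% at 24 h, and 1.23% and 0.594% at 72 h. Without IL-21 they took 0.726% and 0.614% at 6 h, 0.631% and 0.787% at 24 h, and 0.283% and 0.177% at 72 h.

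The inhibitor culture asked whether the IL-21 response of these genes changes when STAT3 is inhibited. Gzmb was at 2376 and 1756 RPKM without IL-21, 20264 and 27117 with IL-21, and 11414 and 10819 with IL-21 and Stattic. The levels of the 3 groups did not overlap. Of all tested genes, 28.9% were lower without overlap with Stattic than with IL-21 alone, and 16.5% were higher with Stattic than without IL-21. With IL-21 Gzmb ranked first among all genes in replicate 2. Gzmc was at 1167 and 1105, then 4697 and 4190, then 1652 and 5178. The 2 Stattic libraries of Gzmc thus lay on either side of both IL-21 libraries.

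The decidual granzymes were low in this culture without IL-21. Gzmd was at 0 and 57.2 RPKM without IL-21, 302 and 517 with it, and 298 and 95.9 with Stattic added. Gzme was at 0.06 and 8.4, then 201 and 672, then 90.5 and 6.2. Gzmf was at 28.6 and 79.8, then 168 and 202, then 837 and 126. Gzmb, Gzmc, Gzmd and Gzmf were higher in both IL-21 libraries than in either library without it, as were 10.7% of all tested genes. Gzme and Gzmg passed the filter on low levels only through the IL-21 group, so they are not set against that share and their fitted differences are not read as tests. Of all genes 0.289% were called higher. With Stattic added, the replicate libraries of Gzmd to Gzmg differed widely.

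Gzmg had 0 and 1 counts without IL-21, 281 and 1104 with it, and 119 and 0 with Stattic added. Against that single count, the ratio of pooled levels with and without IL-21 was 1992, with an interval of 358 to 78682 that covers counting error only.

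**Figure D4:**
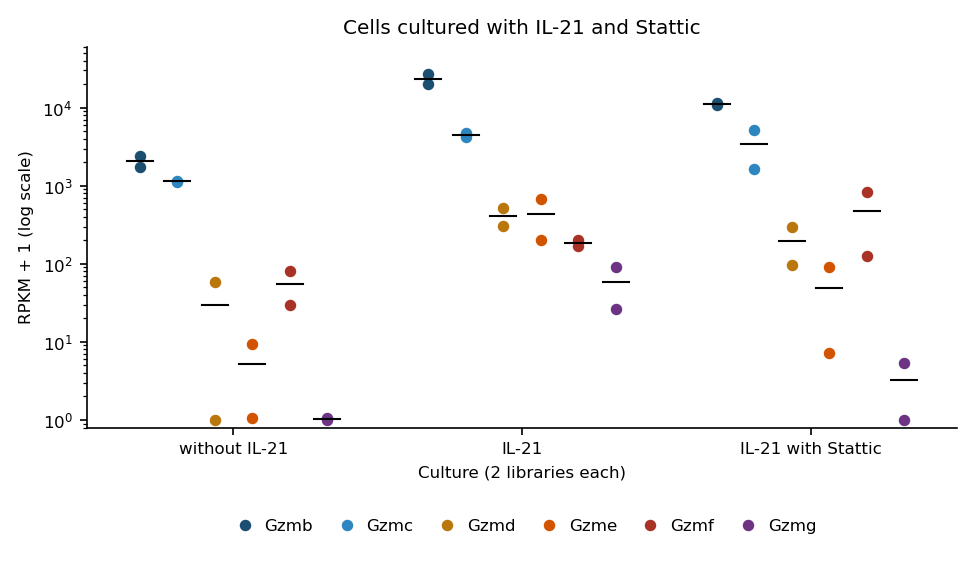
RPKM + 1 on a log axis for the 6 members after 3 days in medium lacking IL-21, in IL-21, or in IL-21 plus Stattic, with 1 point per library (2 per group). Gzmb lies at 20264 and 27117 with IL-21 and at 11414 and 10819 with Stattic added.

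IL-21 raised Gzmb by 3.70 ± 0.35 on the log2 scale (adjusted p = 0.014), the only member called of the 6, over 4158 genes tested. Gzmc had a value of 2.16 (adjusted p = 0.14), Gzmd 4.002 (0.57) and Gzmf 1.95 (0.53). DESeq2 called 4 members, and the share of all genes it called is not given here. Without the first library without IL-21 the call of Gzmb was lost (adjusted p = 0.12). Without the second, 2 members were called, Gzmb and Gzmd. The ILC1 markers summed to 190 and 203 RPKM without IL-21 and to 49.2 and 104 with it, and their part in the result was not tested. Gzmb was not called in a fit of these 2 groups alone (adjusted p = 0.051) or when genes were filtered by filterByExpr (adjusted p = 0.090).

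Between Stattic with IL-21 and IL-21 alone, edgeR called 0 of 6 members, and DESeq2 and limma-voom called 0. The 2 members at an unadjusted p below 0.05 were Gzmb and Gzmg, and Gzmg had passed the filter only through the IL-21 group. Of all genes 2.96% were called in either direction. Gzmb had a value of -0.98 ± 0.32 (adjusted p = 0.15), Gzmc -0.28, Gzmd -0.94 and Gzmf 1.48. Against cells without IL-21, Gzmb stayed higher in the presence of Stattic by 2.72 ± 0.34 (adjusted p = 0.0076), where 2.93% of genes were called higher, and no other member was called. That call was lost without the first library without IL-21 or without either Stattic library (adjusted p from 0.059 to 0.075), and with filterByExpr (adjusted p = 0.054).

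The other granule genes give the setting. Of 23 genes for granule proteins, their processing and their release, 12 to 17 were tested in each experiment. Perforin (Prf1), the pore-forming partner of the granzymes, followed Gzmb in every contrast in which IL-21 raised Gzmb except at 72 h. It rose by 4.08 ± 0.44 on the log2 scale in the inhibitor culture (adjusted p = 0.014), by 2.36 at 6 h (adjusted p = 0.020) and by 2.11 at 24 h (adjusted p = 0.035), and had a value of 0.77 at 72 h (adjusted p = 0.29). With Stattic added Prf1 fell by 2.01 (adjusted p = 0.045), from 523 and 1038 RPKM to 217 and 140, and it stayed 2.07 above the cells without IL-21 (adjusted p = 0.031). Ctsc, the peptidase that activates granzymes, rose with Stattic by 1.86 over IL-21 alone (adjusted p = 0.047) and by 1.91 over cells without IL-21 (adjusted p = 0.034). Gzma, on another chromosome, and Ctsc were called higher with IL-21 at 72 h, by 1.77 and 1.55. They were 2 of 12 granule genes tested, where 6.57% of all genes were called higher.

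In trNK-T against trNK-V, 2 of 16 granule genes were called higher, where 8.07% of all genes were. They were Prf1, by 1.896 ± 0.22, and M6pr, a receptor that sorts enzymes to lysosomes, by 1.33. The list's median was 0.32 against 5.83 for the cluster. Gzma (1.33), Ctsc (0.55) and Srgn (0.43), the proteoglycan that packs granzymes in granules, were not called. Lamp1 was called lower at gd6.5 and gd8.5 against virgin, by 3.67 and 3.68, where 6.22% and 0.377% of genes were called in either direction. Whether these calls depend on which virgin library is kept was not tested. Between 24 and 72 h, the inhibitor Serpinb9 fell by 2.06 without IL-21 and by 1.84 with it, where 9.82% and 6.02% of all genes were called lower. Without IL-21, Ctsc also fell, by 1.12, and Lamp2 rose by 1.24. With IL-21, Cst7, an inhibitor of cathepsins, rose by 1.32 and Nkg7 by 1.31. The share of all genes called higher from 24 to 72 h is not given here. Cst7 was also called in the change of the IL-21 effect (1.17), where 3.6% of genes were called higher.

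The 9 other protease genes of the same chromosome 14 locus were mostly silent. Of these, 0 to 2 passed the filter in any experiment. Mcpt8, a mast cell and basophil protease, was at 0 in both trNK-V libraries, 3.0 and 11.97 RPKM in trNK-D, and 39.7 and 45.4 in trNK-T. Ctsg (cathepsin G), a protease known from neutrophils, was at 0 in trNK-V and trNK-D and at 77.3 and 62.4 in trNK-T. In the gd8.5 trNK libraries not split into subsets, Ctsg had 0 counts. In value Mcpt8 was at least 208-fold and Ctsg at least 354-fold higher in trNK-T than in trNK-V, and Ctsg at least 486-fold higher than in trNK-D. Both passed the filter only through trNK-T, where they are high, so their calls there are not read as tests. In the time course Ctsg had at most 2 counts in any library. Mcpt8 was at 6.7 and 1.0 RPKM at 24 h and at 0 at 72 h without IL-21. It passed the filter there only through the group at 6 h with IL-21, where it is high, so its call is not read as a test either.

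Likeness across all 34 libraries was measured as Pearson's r of log2(CPM + 1), centred within each experiment, over 5672 genes. It is a description, since the libraries share experiments and depth. Among the members r ran from 0.69 (Gzmc and Gzmg) to 0.95 (Gzmd and Gzme), the pair that also shares the most transcript sequence. Among other genes, Avil, which encodes the actin-binding protein advillin, was the most alike for Gzmc (0.84), Gzmd (0.93), Gzme (0.89) and Gzmf (0.83). Glrx (0.83) and Adgrg3 (0.80) followed for Gzmc, AA467197 (0.80) and Spp1 (0.79) for Gzmd, Spp1 (0.84) and AA467197 (0.81) for Gzme, and Zbtb32 and Anxa3 (both 0.79) for Gzmf. Gzmb was most like Idi1 (0.90), Spp1 (0.89) and Gadd45g (0.86), and Gzmg most like Gm44040 (0.82), Zbtb32 (0.79) and Ifitm1 (0.78).

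The single-cell matrix showed which members share a cell. The deposited tables held 15175 barcodes, the same in both, with 0 genes in common, and were joined by cell. After filtering, 8907 cells (58.7%) were kept, and 4171 were left out at or above 2500 genes. Clusters were made without the 6 members. There were 20, of which 6 were trNK-like (3941 cells, median 3464 UMIs), with at least 3 of Itga1, Ncr1, Klrb1c and Eomes up. These markers did not decide the names alone. Clusters 12 (281 cells, median 717 UMIs) and 19 (47 cells) also had all 4 up but stayed unnamed and are not among the 6. Cluster 12 had Gzmd to Gzmg at 4.83 to 6.37 times the level of B-like cells. One of the 6, cluster 9, was led by genes of dividing cells, and another, cluster 16, by interferon-induced genes. Cluster 6 (658 cells, median 5623 UMIs), led by Mt2, Scin, Ctsg and Epas1, held too few trNK markers and stayed unnamed. No doublets were called or removed, and names were rebuilt here and may differ from the study's.

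All 6 transcripts were also found in cells that should lack them. In B-like cells (299 cells, median 1823 UMIs) Gzmb was at 1136 CPM and Gzmd at 928, where CPM is the gene's UMIs scaled to all UMIs of the cluster. After thinning every cell to 1000 UMIs, 50.5% of B-like cells held a Gzmb UMI, against 83.4% of trNK-like cells. For Gzmc the shares were 33.0% and 62.4%, for Gzmd 48.1% and 59.5%, for Gzme 22.1% and 39.8%, for Gzmf 47.4% and 54.6%, and for Gzmg 18.9% and 30.8%. A single UMI was thus a weak sign of expression, above all for Gzmd and Gzmf. Before thinning, 92.5% of trNK-like cells held a Gzmb UMI and 78.4% a Gzmc UMI. Thinning left out 602 of the 8907 cells, too shallow for it.

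Levels were therefore also read against B-like cells. In cluster 5 (716 cells), the highest but for Gzmg, Gzmb stood at 12.9 times the B-like level, Gzmc at 19.7, Gzmd at 15.5, Gzme at 17.8, Gzmf at 20.3 and Gzmg at 11.4. Cluster 8 (480 cells) stood at 5.54 times for Gzmb and at 6.58 to 11.2 times for the other 5. Clusters 1 and 4, the largest trNK-like clusters, had Gzmb at 4.81 and 5.56 times and Gzmc at 2.90 and 4.22 times, while Gzmd to Gzmg lay between 0.62 and 1.32 times. Their cells were also shallower, at medians of 2859 and 2037 UMIs against 5235 in cluster 5. In cluster 1 the decidual granzymes were thus at or below the B-like level. In cluster 4 Gzme (1.32 times) and Gzmf (1.24 times) stood slightly above it, with counting intervals that did not overlap.

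In cluster 6 Gzmg was the highest against B-like cells and Gzmb the lowest. Gzmg stood at 19.5 times the B-like level, Gzme at 12.7, Gzmd at 11.2 and Gzmf at 11.01, while Gzmc was at 5.30 and Gzmb at 2.75. cNK-like cells, conventional NK cells by their markers, had Gzmb at 4.49 times and the other 5 members between 0.72 and 1.02 times. Cluster 7 (483 cells), led by Cxcr6 but also by the T cell receptor genes Tcrg-C4, Tcrg-C1 and Tcrg-C2 and by Cd3e, stayed unnamed, and had Gzmb at 2.81 times and Gzmc at 1.75 times.

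Cells over background were defined as those with more thinned UMIs than 95% of B-like cells, a rule chosen after the data were seen. In cluster 5, Gzmb passed in 87.2% of cells, Gzmc in 87.1%, Gzmd in 71.1%, Gzme in 56.3%, Gzmf in 62.6% and Gzmg in 30.5%. In cluster 6, Gzmb passed in 31.7%, Gzmc in 43.5%, Gzmd in 70.0%, Gzme in 48.4%, Gzmf in 61.5% and Gzmg in 56.5%. In cNK-like cells 56.0% passed for Gzmb and 1.6% to 3.5% for each other member. The contrast between clusters 5 and 6 was therefore widest for Gzmb, and the direction turned for Gzmg.

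**Figure D5:**
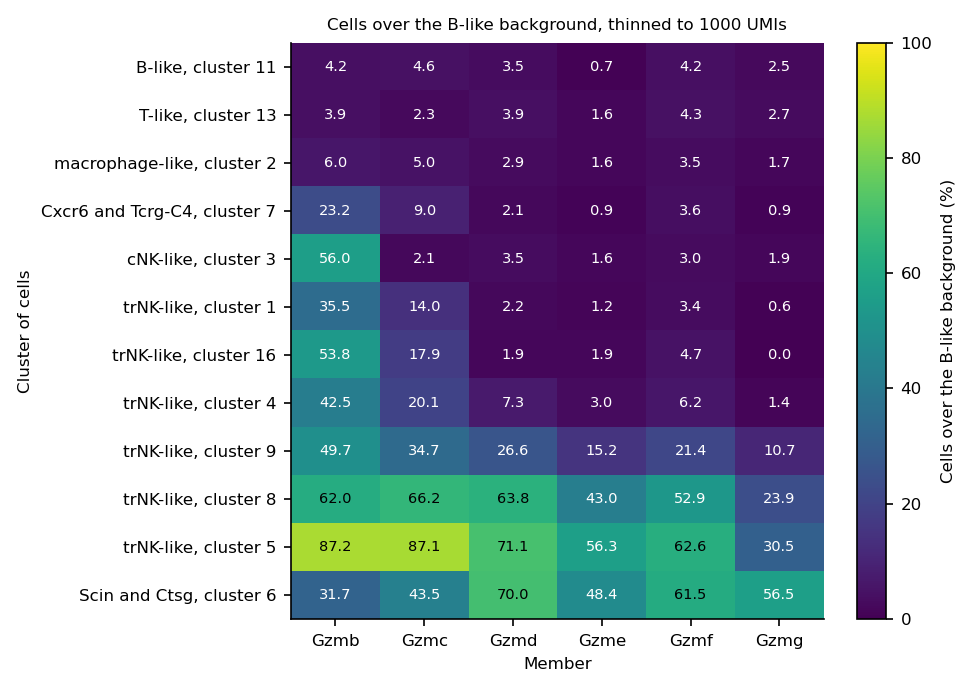
Share of cells (%) over the B-like background for each member (columns) in the named clusters and in clusters 6 and 7 (rows), after thinning to 1000 UMIs per cell. Gzmb is over background in 87.2% of cluster 5 and 31.7% of cluster 6, and Gzmg in 30.5% and 56.5%.

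Within trNK-like cells the members overlapped in part. Of all 3826 thinned cells, Gzmb was over background in 51.9%, Gzmc in 37.7%, Gzmd in 26.3%, Gzme in 18.5%, Gzmf in 23.1% and Gzmg in 10.3%. Of the 394 cells over background for Gzmg, 92.9% were also over it for Gzmd, 85.5% for Gzmf and for Gzmc, 81.7% for Gzme and 76.9% for Gzmb. In the other direction, 15.2% (95% exact binomial interval 13.7% to 16.9%) of the 1987 cells over background for Gzmb were over it for Gzmg, and 46.4% for any of Gzmd to Gzmg. Of the 1442 cells over it for Gzmc, 66.5% were over it for any of Gzmd to Gzmg. The interval covers counting error only. Shared transcript sequence may add to the overlaps and correlations among Gzmd to Gzmg, and its part was not tested.

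Of the trNK-like cells over background for any of Gzmd to Gzmg, 72.7% were over it for Gzmb and 75.6% for Gzmc. At a threshold of 1 UMI these shares were 85.1% (95% interval 83.8% to 86.3%) and 66.9%, and 86.5% of cells with Gzmc held one of Gzmd to Gzmg. In B-like cells the same shares at 1 UMI were 51.4%, 37.7% and 88.3%, so the last did not exceed background. In cluster 6, which the trNK-like shares leave out, 36.6% of cells over background for Gzmd to Gzmg were over it for Gzmb, against 87.7% in cluster 5. Ctsg, found among the sorted subsets only in trNK-T, stood at 26.3 times the B-like level in cluster 6 and at 6.49 in cluster 5. That level was low, at 6.5 CPM, and no counting interval is given for these ratios. Ctsg was also among the genes used for clustering.

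After thinning, few cells were over background for all 6 members. Thinning leaves fewer UMIs per cell, so a member present in a cell can fall below the cutoff. Cells at or above the upper gene limit had been left out. Shares for all 6 members at other depths or without that limit are not given here. All 6 members were over background in 22.8% of cluster 5, 14.2% of cluster 6, 11.9% of cluster 8 and 6.06% of trNK-like cells. None of the 285 thinned B-like cells had 4 or more, whereas 5 of 1038 macrophage-like cells had all 6 and 2 of 256 T-like cells had 5. No member was over background in 35.8% of trNK-like cells. Per cell, Spearman's rho of Gzmd and Gzme, whose transcripts were 94.8% identical, was 0.65 over 3826 trNK-like cells and 0.15 over 285 B-like cells. In trNK-like cells Gzmb correlated with Gzmc at 0.51 and with Gzmd to Gzmg at 0.17 to 0.29, values that pool clusters of different level. Within cluster 5 Gzmb correlated with Gzmc at 0.19 and with Gzmd to Gzmg at -0.11 to -0.02, and Gzmd with Gzme at 0.80. Within cluster 6 Gzmb correlated with Gzmd to Gzmg at 0.36 to 0.46. Cells share 1 sample, so these values describe it and carry no test.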

How the data were processed

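The authors aligned bulk reads with HISAT2 2.1.0 to mm10, per the submitters' processing notes, which also list Subread and featureCounts; the study's methods name RSEM. They deposited a raw count per gene, also for single cells, where the deposited counts are UMIs. RPKM and CPM were computed here from these counts, with totals over all genes and 0 columns left unmapped. Genes above 10 RPKM in both libraries of any group were tested (R 4.3.3, edgeR 4.0.16, TMM, quasi-likelihood, all groups of an experiment in 1 fit, Benjamini-Hochberg adjustment). Alternatives used DESeq2 1.42.0, limma 3.58.1, other scalings, filters and samples. Apart from the virgin fits, counts of members they called stand without the share of all genes called, which is not given here. The fit was first tested on simulated counts, drawn at a common spread for all genes of an experiment. In trNK-T against trNK-V it recovered 34.0% of 2-fold and 98.7% of 4-fold changes. For IL-21 at 72 h it recovered 1.41% and 46.3%, so a member that was not called may still differ. The wide spread of the members between the virgin libraries was not simulated.

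Cells with more than 200 and fewer than 2500 genes and at most 10% mitochondrial UMIs were clustered (30 principal components, Leiden resolution 0.8) without the members, then thinned to 1000 UMIs. Fold bounds against 0 counts use a floor of 3 counts per library, and ratios against 1 to 3 counts carry a counting interval. Named genes were all members, called genes of the chromosome 14 and granule lists with Prf1, Gzma, Ctsc and Srgn, the 3 genes most like each member, and Cd55 and Tnfrsf9 as a check of the sort. Members and lists were chosen with earlier results of these data known. Other libraries of the series were not analysed here.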

Additional observations from a re-analysis of the deposited data

Results flagged for a closer look

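The IL-21 effect at 72 h exceeded that at 6 h in edgeR's interaction test for 3 of 5 members tested, each with 2 libraries per group. Of all 3503 genes, 3.6% were called higher. Gzmc gave an adjusted p of 0.00774, Gzmd 0.000803 and Gzme 0.000233. The ratio of means for Gzmc went from 0.794 at 6 h to 3.67 at 72 h. For Gzmd and Gzme the 72 h libraries without IL-21 were at or near 0 counts, so no size is given for their change. Their means with IL-21 were no higher at 72 h than at 6 h. They were 127 against 147 RPKM for Gzmd and 92.5 against 113 for Gzme.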

How the results depend on the processing

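Counts of members called moved with the processing as follows. Without the share of all genes that each alternative called, these counts show how calls move and not how far the members stand out. With no filter on low levels, edgeR used 1 spread for all genes and called 5 members at gd6.5 and at gd8.5 against virgin, 2 at gd8.5 against gd6.5, 5 in trNK-D against trNK-V and in trNK-T against trNK-D, 6 for IL-21 and for Stattic against no IL-21, 3 for Stattic against IL-21, 4 for IL-21 at 24 h, 1 from 0 to 6 h, 3 from 6 to 24 h and 4 from 24 to 72 h with IL-21. DESeq2 called 4 in trNK-D against trNK-V, 3 in trNK-T against trNK-D, 4 for IL-21 and 3 for Stattic against no IL-21, 4 at 24 h, and 1 and 3 from 0 to 6 h and 6 to 24 h with IL-21. limma-voom called 3 at 24 h and 1 from 0 to 6 h with IL-21. With filterByExpr, 0 members were called in trNK-D against trNK-V, for IL-21 or Stattic against no IL-21, and for IL-21 at 6 or 24 h, and 1 from 24 to 72 h with IL-21. Fits of only the groups compared called 1 at gd8.5 against gd6.5, 4 in trNK-T against trNK-D, 2 for Stattic against no IL-21, 3 at 6 h, 4 at 24 h and 0 at 72 h, 1 from 6 to 24 h and 1 from 24 to 72 h without IL-21, and 3 and 1 over those steps with it. A replicate block called 0 members for IL-21 in the inhibitor culture (adjusted p of Gzmb = 0.10) and 3 in trNK-D against trNK-V. Correlations of deviations between groups ran from -0.51 to 0.60 in the inhibitor culture, so replicate numbers did not pair those libraries. In the subsets they ran from -0.015 to 0.41, and whether the numbers pair the libraries there is not settled. Apart from the filter, the cause of these shifts was not tested.

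Leaving out 1 library gave 0 to 6 members at gd6.5 and at gd8.5 against virgin, 0 to 2 in trNK-D and 3 to 6 in trNK-T against trNK-V, 0 to 1 in trNK-T against trNK-D, 0 to 2 for IL-21 and for Stattic against no IL-21, 0 for IL-21 at 6 h and at 24 h, 4 to 5 at 72 h, 2 to 4 from 24 to 72 h without IL-21, and 0 to 1, 0 and 0 to 3 over the 3 steps with it. For the effect at 72 h minus that at 6 h, 3 to 4 members were called. Of 1434 values of single members, 34 had another sign than the reported one, and 1 of these was called, the 7.36 of Gzmc at gd6.5 without virgin replicate 2, against -1.23 without replicate 1.

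In single cells, the share of cells with Gzmd to Gzmg that hold Gzmb was 77.2% with an upper limit of 2500 UMIs, 91.5% with no upper limit, 77.6% and 93.8% at 500 and 2000 UMIs per cell, 79.3% at 2 UMIs per gene and 72.7% over the B-like background. For Gzmc these shares were 56.4%, 77.2%, 59.8%, 78.9% and, over background, 75.6%, with 62.9% at a clustering resolution of 0.4. For cells with Gzmc that hold Gzmd to Gzmg they were 88.3%, 89.1%, 77.5%, 94.0%, 73.4% and 66.5%, with 84.2% at that resolution. In B-like cells this last share was 89.3% with the limit of 2500 UMIs, 88.4% with no upper limit and 88.3% at resolution 0.4. At these settings it thus lay near or below background in trNK-like cells. The B-like shares for Gzmb were 60.7%, 58.1% and 51.4%, and for Gzmc 37.6%, 41.9% and 37.7%. B-like shares at the other settings are not given here.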
